A study of Mus musculus with 34 samples.

Results

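The cytosolic ribosomal protein genes were examined in macrophages sorted from the mouse colon. They were taken by symbol: Rpl or Rps followed by a number and at most 1 letter, Rplp0 to Rplp2, and Rpsa, with the Rps6k kinases left out. The rule found 75 genes among the 9851 listed in any of the 3 deposited tables, 44 of the large and 31 of the small subunit. Of these, 63 are listed in all 3 tables and 12 in 1 or 2. There are 67 in the first table, 72 in the rescue table and 67 in the neutrophil table. After removal of genes whose mean lay in the lowest 25% of a table, 59, 65 and 55 were tested. Statements on tested genes therefore leave out 8, 7 and 12 low members, such as Rps12 and Rps29, which were removed in every table.

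The series holds 34 libraries of CD45+ CD11b+ CD11c-intermediate CD64+ cells without Ly6c and CD103, from the colonic lamina propria of C57BL/6 mice. By the title of the series, IL10R marks macrophages that lack IL-10Rα, the ligand-binding chain of the interleukin-10 receptor. The labels give neither the Cre driver nor the alleles of any group. The first table compares untreated mice of 6 to 7 weeks titled CXhet (n = 3) and IL10R (n = 3). The rescue table holds mice of the same age: untreated CX (n = 2), untreated IL10R (n = 5), untreated IL10R_P19 (n = 4), IL10R_abx with antibiotics in the drinking water (n = 4), and littermate_abx with the same antibiotics (n = 3). P19 was read as the subunit of interleukin-23 encoded by Il23a. The genotype of the littermates is not given, nor what a term shared by the titles of the IL10R, IL10R_P19 and IL10R_abx libraries means. The neutrophil table holds bone marrow chimeras 4 weeks after transfer, titled wt (n = 4), ko_igg (n = 3) and ko_ly6g (n = 3), where host cells may remain. Its treatment label gives all 10 libraries an anti-Ly6g injection, which conflicts with their titles. Groups were taken from the titles. Nothing says that libraries of a group came from separate mice. The p-values thus weigh a group difference only against the scatter of these libraries, and that scatter may be technical.

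A eukaryotic ribosome is built from 4 ribosomal RNAs and a set of proteins, nearly all present in 1 copy per particle. The small subunit reads the messenger RNA, and the large subunit joins amino acids and releases the chain through an exit tunnel. Cells keep the messenger RNAs of these proteins at high and balanced levels. Most of these messengers begin with a C followed by a run of pyrimidines, the 5′ terminal oligopyrimidine tract, through which growth signalling by mTOR controls their translation rather than their level. Macrophages change their protein synthesis when they are activated, so the family is of interest in cells that lack the restraint of interleukin-10. Ribosomal protein genes also have many near-identical processed copies in the genome. How reads that fit several copies were treated is not given in the sources used here, so values of single members, and of the near-copies Rps4x and Rps4l above all, carry that uncertainty.

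Starts of transcription are shown for 9 members with a call below, to display the pyrimidine tract. Not all members called here have it at the annotated start. The RefSeq promoter table (GRCm38.p6) held 54 of the 75 members. Each stretch runs 5′ to 3′ on the strand of the gene, from 45 bases before the annotated start to 20 bases from it, and capitals mark the tract. The tract was searched as C followed by at least 4 bases that are each C or T, on the gene's strand, with its first C at most 3 bases from the start.
Rps10 (chr17:27635225-27635289, minus strand): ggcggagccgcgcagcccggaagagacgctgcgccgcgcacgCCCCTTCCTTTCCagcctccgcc
Rpl35 (chr2:39005112-39005176, minus strand): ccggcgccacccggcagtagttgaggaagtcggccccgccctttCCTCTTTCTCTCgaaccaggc
Rps6 (chr4:86857348-86857412, minus strand): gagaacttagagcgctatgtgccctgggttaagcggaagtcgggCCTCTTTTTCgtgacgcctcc
Rps27 (chr3:90213629-90213693, minus strand): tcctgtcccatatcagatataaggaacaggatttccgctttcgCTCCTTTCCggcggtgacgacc
Rps21 (chr2:180257334-180257398, plus strand): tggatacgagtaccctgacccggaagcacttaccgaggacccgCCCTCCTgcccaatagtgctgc
Rpl31 (chr1:39367806-39367870, plus strand): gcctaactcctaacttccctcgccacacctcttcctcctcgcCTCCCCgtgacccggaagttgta
Rpl41 (chr10:128549149-128549213, minus strand): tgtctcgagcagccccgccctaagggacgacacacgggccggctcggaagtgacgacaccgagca
Rps4x (chrX:102189372-102189436, minus strand): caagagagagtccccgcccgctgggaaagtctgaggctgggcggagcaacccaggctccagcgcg
Rps25 (chr9:44407669-44407733, plus strand): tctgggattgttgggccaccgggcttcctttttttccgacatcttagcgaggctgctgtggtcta
The longest marked tract, in Rps10, spans 13 bases, and none was found at the annotated starts of Rpl41, Rps4x and Rps25. The marks depend on the limit of 3 bases from the start. In Rpl35 further pyrimidines lie directly before the capitals, as does a further C in Rpl31, and Rps25 holds an unmarked pyrimidine run farther before its start. Annotated starts can lie some bases from the start a cell uses, so a missing match says only that these letters are not there.

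Of the 54 members in the promoter table, 23 (42.6%) had the tract at an annotated start, against 13.5% of all 27025 genes in it. The share was 42.9% among the 14 matched members that were called in any comparison and 42.5% among the 40 that were not. The letters CGGAAG hold the GGAA core bound by ETS factors. They were found on either strand in 64.6% of the members' 300-base windows and in 16.9% of all windows. They stand in the printed stretches of Rps10, Rps6, Rps21, Rpl31 and Rpl41. A match is a description of these windows and no measure of binding.

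The values are normalized signal per gene, in 32 of 34 libraries each the reads of a gene divided by 1 factor per library, and are not corrected for length, so levels are compared here between libraries and not between genes. A library of the first table held between 1458726 and 2487074 reads in listed genes, one of the rescue table between 747046 and 2775974, and the 8 neutrophil libraries whose reads could be recovered between 1028567 and 4525047. Il10ra, the targeted gene, checks the labels. It lay at 371 to 689 in CXhet and at 9.26, 361 and 65.9 in IL10R 1, 2 and 3 of the first table, so the library labelled IL10R 2 came close to the lowest control. In the rescue table Il10ra lay at 248 to 284 in CX, 138 to 191 in littermate_abx, and at most 31.2 in the 3 IL10R groups. In the neutrophil table it lay at 247 to 827 in wt, 77.9 to 111 in ko_igg and 32.2 to 65.1 in ko_ly6g. The macrophage markers Cx3cr1, Csf1r, Adgre1 and the C1q genes were listed in every table, and 14 of 16 macrophage markers were listed. All 19 epithelial markers were listed too, at a summed share of 0.30% to 2.69% of the signal, so the sorted cells were not free of epithelial transcripts.

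Ribosomal protein genes took between 2.80% and 4.58% of the listed signal of a library. In the first table the share was 2.80%, 3.52% and 3.58% in CXhet and 3.20%, 3.81% and 3.47% in IL10R, and the groups overlap. In the rescue table it was 4.35% and 3.68% in CX and 4.00%, 3.79%, 4.21%, 4.25% and 4.12% in IL10R. It was 4.32%, 4.05%, 3.96% and 3.69% in IL10R_P19. With antibiotics it was 3.59%, 3.49%, 3.15% and 3.20% in IL10R_abx and 3.43%, 3.20% and 3.35% in littermate_abx. All 7 antibiotic libraries thus lay below all 11 others of that table. The listed signal by which the members' sum is divided was higher in these 7 libraries, at 1488020 to 1650410. It was 1353600 to 1469210 in the 11 others, and its part in the lower share was not tested. In the neutrophil table the share was 4.14%, 4.24%, 4.22% and 4.58% in wt, 3.62%, 3.42% and 3.19% in ko_igg, and 3.53%, 3.86% and 4.24% in ko_ly6g. The ko_igg libraries all lay below the wt libraries, and ko_ly6g spanned the gap between them. In bulk libraries, less RNA per cell of a gene and fewer cells that hold it cannot be told apart.

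**Figure D1:**
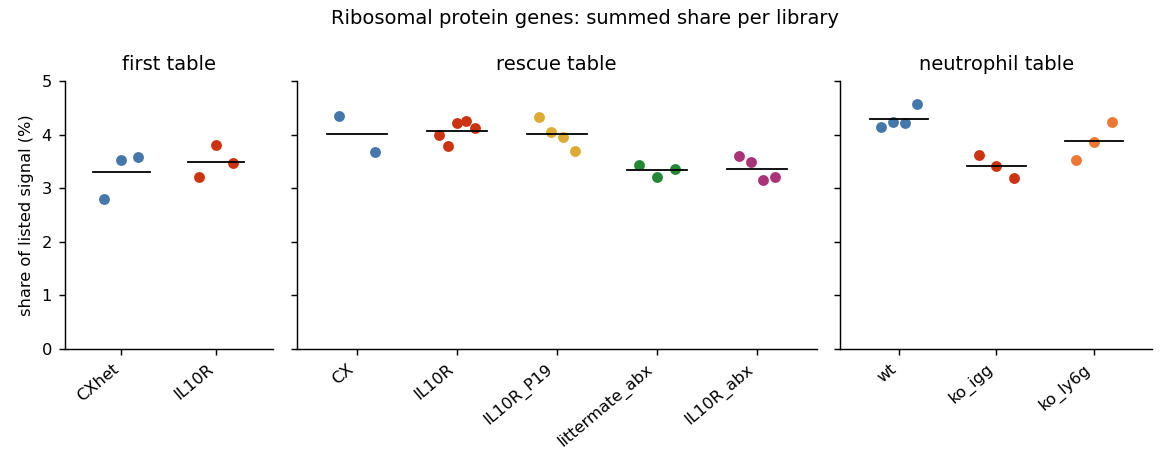
Summed signal of the ribosomal protein genes as a percent of all listed signal; each point is 1 library, lines are group means, and the vertical axis starts at 0. The 7 antibiotic libraries (3.15% to 3.59%) lie below the 11 others of the rescue table, and ko_igg (3.19% to 3.62%) lies below wt (4.14% to 4.58%). The listed signal, which is the divisor, was higher in those 7 libraries than in the 11 others.

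In the first table, which asks how macrophages without the interleukin-10 receptor differ from CXhet controls, few ribosomal protein genes were called. Of 59 tested members 1 rose and 1 fell, against 8.69% of all 6766 genes called (limma, Benjamini-Hochberg adjusted p under 0.05). The median change of the members was 0.11 on the log2 scale, against 0.00 for all genes, and 57 of the 59 lay within 2-fold. Rpl29, a heparin-binding protein at the surface of the large subunit, was the member that rose. Its signal was 778, 694 and 676 in CXhet and 1678, 3006 and 1857 in IL10R. Every IL10R library lay more than 2-fold above every control, a change of 1.56 (SE 0.25, adjusted p = 0.00844). Rpl5, which carries the 5S ribosomal RNA into the ribosome together with Rpl11 and binds the p53 regulator Mdm2 when free, was the member that fell. Its signal was 73.5, 99.7 and 83.4 in CXhet and 43.6, 41.5 and 48.2 in IL10R, with no overlap, a change of -0.92 (SE 0.22, adjusted p = 0.0372). The 2 groups did not overlap, in either direction, for 18.6% of tested members and 32.4% of all tested genes.

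The next largest changes of the first table did not pass the test. Rps2, which lines the entry of the messenger RNA channel, lay at 711, 486 and 423 in CXhet and 772, 1341 and 946 in IL10R, a change of 0.91 (SE 0.28, adjusted p = 0.0754). Rps27l, a p53-inducible relative of Rps27, lay at 188, 362 and 259 against 325, 733 and 360 (0.76, SE 0.34, adjusted p = 0.201). Rpl39, a small protein of the exit tunnel, was at 191, 103 and 210 in CXhet and 131, 14.2 and 173 in IL10R. Its change of -1.19 (SE 0.79, adjusted p = 0.38) rests on 1 low library, the one labelled IL10R 2. Without that library the change of Rpl29 was 1.30 (adjusted p = 0.00709) and that of Rpl5 was -0.87 (adjusted p = 0.0649). Without CXhet 2 the adjusted p of Rpl29 was 0.0537, with a change of 1.54. The call of Rpl5 was lost on leaving out any 1 of 5 of the 6 libraries (CXhet 2, CXhet 3 and each IL10R library), with an adjusted p of at most 0.177.

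The rescue table repeats the comparison of untreated IL10R with control macrophages in other libraries. Here 1 of 65 tested members rose and 2 fell, against 9.91% of 6612 genes called, and the members' median change was -0.10 against 0.01 for all genes. Rpl29 was again the member that rose, from 779 and 547 in CX to 1295, 1166, 1194, 1350 and 1355 in IL10R. The change was 0.96 (SE 0.18, adjusted p = 0.00328), and all 5 libraries lay above both controls. IL10R and CX did not overlap for 24.6% of members and 37.1% of all genes. Rps10, a small subunit protein whose mutation can cause Diamond-Blackfan anaemia, fell from 236 and 175 to 124, 143, 144, 132 and 125 (-0.61, SE 0.16, adjusted p = 0.0221). Rps14, whose loss underlies the anaemia of the 5q- syndrome, fell from 3237 and 1818 to 1190, 1197, 1724, 1576 and 1605 (-0.75, SE 0.22, adjusted p = 0.038). For Rps14 the lower control lay near the highest IL10R library.

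The CX group held only 2 libraries, and these calls rest on them. Without CX 1 the members' median change was -0.02 and only Rpl29 was called among them, but the share of all genes called dropped as well, to 0.302%. Without CX 1 the change of Rps10 was -0.39 (adjusted p = 0.4) and that of Rps14 was -0.34 (adjusted p = 0.613). Without CX 3 the change of Rpl29 was 0.70 (adjusted p = 0.0887). The call of Rps14 was also lost on leaving out IL10R 27, 32 or 67, with adjusted p-values of 0.0652, 0.0826 and 0.0506. It was lost too with each library brought to the same sum (adjusted p = 0.0564), with quantile normalization (0.0831) and in a fit on the 2 groups only (0.0521). Rpl35a, another gene of Diamond-Blackfan anaemia, showed the largest fitted change, -1.54 (SE 0.86, adjusted p = 0.278). Its signal was 151 and 182 in CX but 205, 217, 15.8, 9.11 and 80.4 in IL10R 27, 32, 61, 67 and 68, so 2 libraries of that group were above both controls and 3 were below them.

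Rpl29 was low in the 2 CX libraries and higher in every other group of the rescue table. It lay at 1250, 1172, 1166 and 1149 in IL10R_P19, at 1251, 812, 953 and 1240 in IL10R_abx, and at 1213, 1121 and 1251 in littermate_abx. These 3 groups overlap each other, and all their libraries lay above both CX libraries. Of all genes 24.4% did not overlap between IL10R_P19 and CX, and 62.1% between littermate_abx and CX. The difference between the deficiency change with antibiotics (IL10R_abx against littermate_abx) and without them (IL10R against CX) was -1.15 for Rpl29 (SE 0.24, adjusted p = 0.0683). It passed with quantile normalization (adjusted p = 0.045) and without IL10R 68 (0.0334). None of 65 members passed this test of the interaction, against 0.106% of genes, and 3 members and 699 of all genes had an unadjusted limma p under 0.05. In the neutrophil table Rpl29 lay at 3352, 2623, 3253 and 2105 in wt, 3350, 1800 and 2021 in ko_igg and 2899, 3079 and 2978 in ko_ly6g. All 3 groups overlap there, so the higher level of the libraries labelled IL10R in the other tables was not seen among the chimeras. This difference between tables was not tested.

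**Figure D2:**
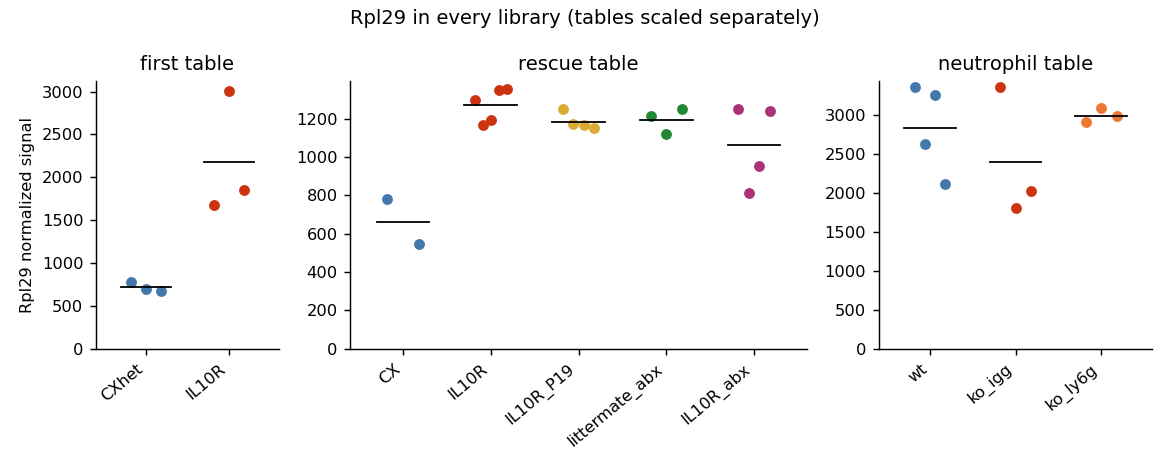
Rpl29 normalized signal; each point is 1 library and lines are group means. IL10R lies above CXhet in the first table and every other group lies above the 2 CX libraries (779 and 547) in the rescue table, while the groups of the neutrophil table overlap. Tables were scaled separately and their levels are not comparable.

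Loss of P19 in IL10R macrophages addresses what interleukin-23 contributes. Of 65 members 2 rose and none fell, against 2.43% of genes called, and the members' median change was 0.06. Rpl3, which reaches towards the peptidyl transferase centre, rose from 42.9, 45.6, 28.1, 28.9 and 45.8 in IL10R to 73.0, 60.9, 67.7 and 62.0 in IL10R_P19 (0.80, SE 0.19, adjusted p = 0.0297). The 4 IL10R_P19 libraries lay above all 5 IL10R libraries and at the level of CX (61.1 and 60.9). IL10R_P19 and IL10R did not overlap for 10.8% of members and 8.64% of all genes. Rpl35, a protein at the rim of the exit tunnel, rose from 92.3, 111, 111, 103 and 86.1 to 130, 223, 123 and 182 (0.67, SE 0.17, adjusted p = 0.0468), against 160.5 and 116 in CX. Both calls depend on single libraries. Leaving out 1 of IL10R 61 or 67 or of IL10R_P19_105, IL10R_P19_106 or IL10R_P19_107 ended that of Rpl3 (adjusted p at most 0.108). Leaving out any 1 library but IL10R_P19_100 ended that of Rpl35 (adjusted p at most 0.179). The call of Rpl35 was also lost without the filter on low genes (adjusted p = 0.0525), with each library brought to the same sum (0.0584) and in a fit on the 2 groups only (0.0547).

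Against CX, no member differed in IL10R_P19, where 0.0302% of genes were called and 3 members and 333 genes had an unadjusted limma p under 0.05. edgeR's quasi-likelihood test on the recovered reads also called no member. The largest rise and the largest fall were those of Rpl29 (0.86, SE 0.18, adjusted p = 0.184) and Rps10 (-0.46, SE 0.17, adjusted p = 0.893). Rps10 lay at 153, 149, 146 and 143 in IL10R_P19, below both CX libraries. These groups did not overlap for 26.2% of members and 24.4% of all genes.

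With antibiotics most tested genes of IL10R macrophages were called, while few ribosomal protein genes were called. Of 65 members 3 rose and 7 fell, against 57.8% of all genes, with a median change of -0.15 against 0.03 for all genes. Of the members only 1, Rpl35a, had a fitted change of 2-fold or more, and it did not pass the test (1.61, SE 0.69, adjusted p = 0.0574), whereas 73.0% of all genes stayed within 2-fold. The difference in share was not itself tested. The number of calls depends on the scaling. When each library was brought to the same sum, the median of all genes moved by -0.206 (log2), and 27 members fell and none rose, with 59.6% of genes called. The members' median minus that of all genes was then -0.175, and -0.181 in the values as deposited. With quantile normalization 23 members fell and 2 rose, with 57.8% of genes called. The members' median minus that of all genes was larger in size there, at -0.287.

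Small subunit proteins made up 5 of the 7 members that fell, where 27 small and 38 large subunit members were tested. This did not hold without IL10R_abx_160 and IL10R_abx_161. Most members that fell then were of the large subunit (Rpl41, Rpl27a, Rpl8, Rpl37, Rplp0, Rpl14 and Rpl4), beside Rps21, Rps27l and Rps4l. Rps4x, a small subunit protein encoded on the X chromosome, was at 369, 346, 352, 336 and 388 in IL10R and at 93.6, 188, 292 and 288 in IL10R_abx (-0.86, SE 0.23, adjusted p = 0.00343). Rps4l, its near-copy, was at 79.3, 106.8, 63.1, 50.9 and 72.4 against 39.2, 37.6, 47.5 and 31.7 (-0.89, SE 0.20, adjusted p = 0.00102). For both the groups do not overlap, which held for 7.69% of members and 42.1% of all genes in this comparison. Rps27 fell by 0.73 (SE 0.20, adjusted p = 0.005), with 42.5 to 70.5 in IL10R and 34.8, 24.4, 33.9 and 54.8 in IL10R_abx. Rps6, the target of the S6 kinases downstream of mTOR, fell by 0.54 (SE 0.20, adjusted p = 0.028), with 76.7 to 96.5 against 60.9, 33.9, 79.7 and 75.9. Rps25, which some viral messengers need to engage the ribosome, fell by 0.55 (SE 0.22, adjusted p = 0.0368). Its fall came from IL10R_abx_160 and IL10R_abx_161, at 144 and 150, while IL10R_abx_495 and IL10R_abx_497 lay at 312 and 363 and the IL10R libraries at 311 to 337.

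Rpl41 and Rpl31 were the large subunit members that fell. Rpl41, the smallest ribosomal protein, lay at 3860, 3726, 4408, 4733 and 4462 in IL10R and at 2938, 1813, 3186 and 3484 in IL10R_abx, without overlap (-0.61, SE 0.16, adjusted p = 0.00322). Rpl31 fell by 0.37 (SE 0.15, adjusted p = 0.0378), with 56.0 to 88.4 against 49.2 to 52.2. Among the members that rose, Rpl10, a late-joining large subunit protein near the transfer RNA sites, went from 97.4 to 104 in IL10R to 155, 286, 110 and 121 (0.62, SE 0.21, adjusted p = 0.0142). Rpl3 rose by 0.55 (SE 0.19, adjusted p = 0.018) and lay at 37.0, 62.1, 64.4 and 62.5 in IL10R_abx. Rps20, a protein of the small subunit head, rose by 0.68 (SE 0.27, adjusted p = 0.0359). Its values in IL10R_abx were 696, 1864, 514 and 577 against 424 to 573 in IL10R, so 1 library carries most of that rise.

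The pair IL10R_abx_160 and IL10R_abx_161 stood apart for several members. Its libraries held 747046 and 877518 reads in listed genes, the fewest of the rescue table, with IL10R_abx_495 next at 877627. The part of depth was not tested. Leaving out both libraries of the pair was added after the values were seen. With them removed 10 members fell and 1 rose, with 56.5% of genes called, but these were mostly other members. Of the 10 calls 3 remained, 7 were lost and 8 others were gained. Rpl41, Rps4l and Rpl3 were still called (-0.34, -0.88 and 0.75). Lost were Rps4x (-0.30, adjusted p = 0.0504), Rpl31 (-0.39, 0.081) and Rps27 (-0.45, 0.0922), and with much smaller changes Rpl10 (0.19, 0.31), Rps6 (-0.16, 0.45), Rps20 (0.14, 0.474) and Rps25 (0.05, 0.788). Leaving out single libraries ended the calls of Rps25 (IL10R 32, 61, 67 and 68, IL10R_abx_160 and IL10R_abx_161; adjusted p at most 0.18), Rpl31 (IL10R 27 and 68, each IL10R_abx library; at most 0.115) and Rps6 (IL10R 32 and 68, IL10R_abx_161; at most 0.145). It also ended those of Rpl3 (IL10R 61 and 67, IL10R_abx_495 and IL10R_abx_497; adjusted p at most 0.0561), Rps20 (IL10R 32 and 68, IL10R_abx_161; at most 0.149) and Rpl10 (IL10R_abx_161; 0.0649). The calls of Rps4x, Rps4l, Rps27 and Rpl41 held on leaving out any single library. Without IL10R 68 the comparison called 6 members (55.4% of genes) and without IL10R_abx_497 it called 17 (55.8%).

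**Figure D3:**
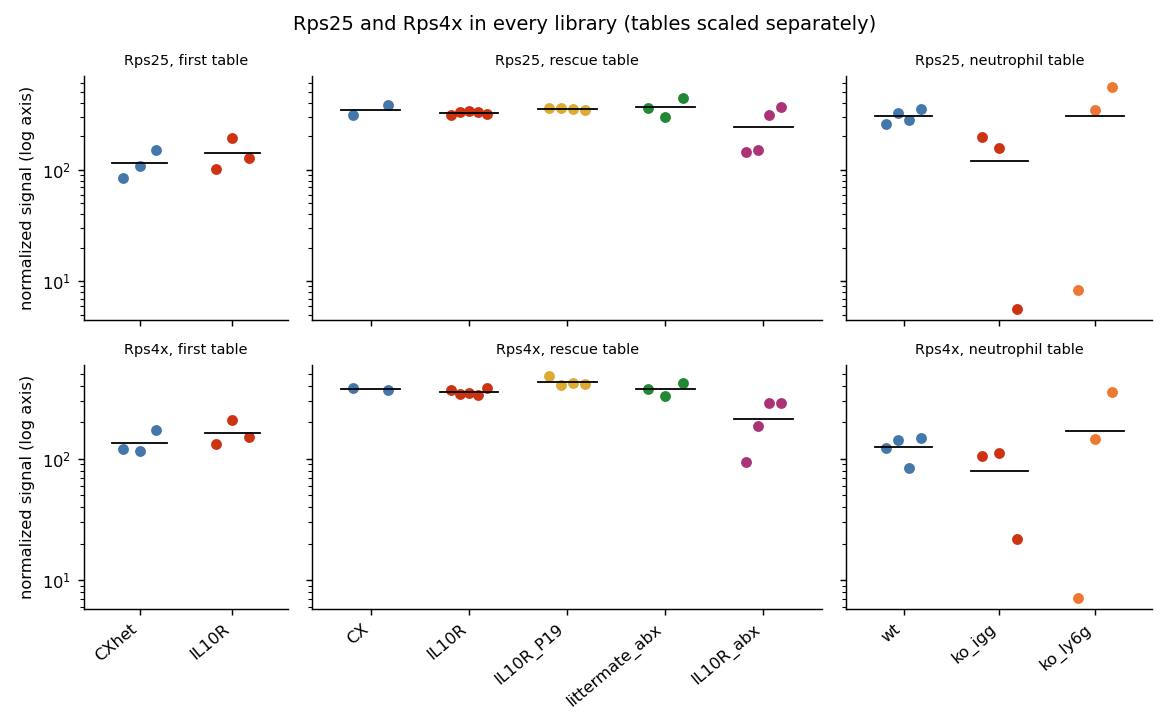
Rps25 and Rps4x normalized signal on log axes; each point is 1 library and lines are group means. IL10R_abx_160 and IL10R_abx_161 are low for both genes, and ko_igg 18 and ko_ly6g 5 lie far below the other chimeras (Rps25 at 5.69 and 8.35 against 158 to 555). Tables were scaled separately.

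Against the other rescue, IL10R_P19, 12 of 65 members were lower and 1 was higher in IL10R_abx, with 48.3% of genes called. The members' median change was -0.14, at -0.36 for the 27 small subunit members and -0.07 for the 38 large subunit members. Rps4x changed by -1.13 (SE 0.24, adjusted p = 0.00078), from 484, 404, 424 and 415 in IL10R_P19. Rps27 changed by -0.91 (SE 0.22, adjusted p = 0.00169), from 60.9, 67.6, 68.4 and 75.2. Rps4l (-0.80), Rpl41 (-0.70), Rps25 (-0.67), Rpl39 (-0.87) and Rps21 (-0.36) fell too, and Rpl10 rose by 0.65. The other 5 that fell, chosen after their values were seen, were Rps6, Rpl35, Rps16, Rps14 and Rpl31, by 0.46 to 0.58. This comparison shares its IL10R_abx libraries with the preceding one and is not independent of it.

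With equal sums per library 24 members fell and none rose in this comparison (49.1% of genes called), and with quantile normalization 24 fell and 1 rose (49.4%). Without IL10R_abx_160 and IL10R_abx_161, 9 fell and none rose (47.6%), and 6 of the 13 calls remained. Rps4x (-0.57), Rps27 (-0.64), Rps4l (-0.80), Rpl41 (-0.43), Rps21 (-0.50) and Rpl31 (-0.47) were still called. Rps25 (-0.07, adjusted p = 0.714), Rpl39 (-0.17, 0.596) and Rpl10 (0.22, 0.277) were not, nor were Rps6, Rpl35, Rps16 and Rps14. The 3 calls gained, Rpl15, Rpl27a and Rplp0, were all of the large subunit. Leaving out single libraries changed the count to 7 (IL10R_P19_100 or IL10R_P19_107, with 41.5% and 45.1% of genes called), 8 (IL10R_abx_161, 48.7%) or 20 (IL10R_abx_497, 47.2%). It ended the calls of Rpl39 (each IL10R_P19 library, IL10R_abx_160 and IL10R_abx_161; adjusted p at most 0.159), Rps25 (IL10R_abx_160 and IL10R_abx_161; at most 0.0933), Rpl10 (IL10R_P19_100, IL10R_abx_161; at most 0.0638) and Rps21 (IL10R_P19_100; 0.05).

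In littermates given antibiotics, compared with untreated CX, 1 of 65 members rose and 1 fell, against 34% of genes called, with a median change of -0.13. Rpl29 rose by 0.87 (SE 0.19, adjusted p = 0.00171), and Rpl41 fell by 0.57 (SE 0.22, adjusted p = 0.0495), from 5460 and 4385 to 3500, 3020 and 3373. The 3 littermate libraries lay below both CX libraries for Rpl41, but its call was lost on leaving out any 1 of the 5 libraries (adjusted p at most 0.327). These groups did not overlap for 20% of members and 62.1% of all genes. The call of Rpl29 was lost without CX 3 (adjusted p = 0.0618). Equal sums per library gave 7 lower and 1 higher members (33.6% of genes called, with the median of all genes moved by -0.14), and quantile normalization 6 lower and 1 higher (32.7%).

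Between IL10R_abx and littermate_abx no member differed, where 0.0302% of genes were called and 13 members and 997 genes had an unadjusted limma p under 0.05. edgeR called no member there either. Rps4x showed the largest change, from 376, 328 and 426 in littermate_abx to 93.6, 188, 292 and 288 (-0.93, SE 0.26, adjusted p = 0.171), and the groups do not overlap. Non-overlap held here for 10.8% of members and 7.86% of all genes. Without IL10R_abx_497 the comparison called 5 of 65 members and 5.82% of all genes.

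Other transcripts moved with antibiotics beside these genes. Epithelial markers summed to 0.34% to 0.56% of the signal in IL10R_abx and 0.30% to 0.46% in littermate_abx, against 1.75% to 2.35% in the 11 other libraries of the table. Macrophage markers summed to 2.50% to 3.20% and 2.90% to 3.16% with antibiotics, against 0.98% to 1.28% in IL10R, 1.16% to 1.86% in IL10R_P19 and 2.16% to 2.17% in CX. Their part in the changes of the ribosomal protein genes was not tested.

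**Figure D4:**
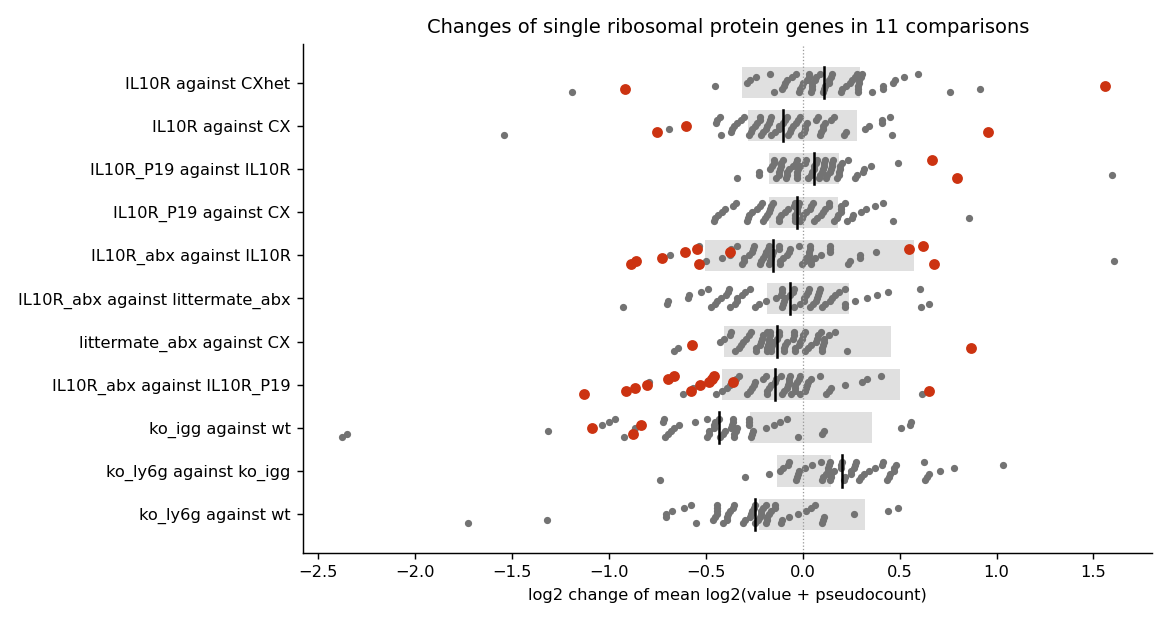
Log2 change of every tested ribosomal protein gene in each comparison; grey points are genes that did not pass, red points passed at an adjusted p under 0.05, black bars are the members' medians and grey bands run from the lower to the upper quartile of all genes. The members' median lies farthest below 0 in ko_igg against wt (-0.43) and ko_ly6g against wt (-0.25), then in the 3 comparisons with antibiotics in 1 group only (-0.13 to -0.15) and in IL10R against CX (-0.10).

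In the chimeras the family lay lower in ko_igg than in wt. Of 55 tested members 50 had a negative change, with a median of -0.43, whereas the median of all genes was 0.06 and 55.6% of genes had a positive change. Few single members passed: 3 fell and none rose, against 9.19% of genes called. The median was -0.42 for the 32 large subunit members and -0.46 for the 23 small subunit members. Rpl37, a zinc-binding protein of the large subunit, fell from 446, 368, 380 and 519 to 244, 247 and 222 (-0.83, SE 0.16, adjusted p = 0.0102). Rps10 fell from 193, 176, 140 and 217 to 100.0, 106.4 and 86.5 (-0.88, SE 0.18, adjusted p = 0.013). Rps14 fell from 7644, 4137, 3863 and 5171 to 2558, 2301 and 2226 (-1.09, SE 0.29, adjusted p = 0.0448). For these 3 genes every ko_igg library lay below every wt library. The 2 groups did not overlap, in either direction, for 34.5% of tested members and 28.6% of all tested genes.

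Depletion with the Ly6g antibody asks whether neutrophils matter for these macrophages. No member differed between ko_ly6g and ko_igg, where 0% of genes were called and 3 members and 127 genes had an unadjusted limma p under 0.05; edgeR called no gene there. The members' median change was 0.21, and 44 of 55 had a positive one. Between ko_ly6g and wt no member differed either, against 4.34% of genes called, with 2 members and 1338 genes at an unadjusted limma p under 0.05, and with a median change of -0.25, which was -0.10 without ko_igg 18 and ko_ly6g 5. Rpl37 lay at 322, 318 and 331 in ko_ly6g, between the other groups without overlap. Non-overlap of ko_ly6g held for 14.5% of members and 7.40% of genes against ko_igg, and for 9.09% and 21.0% against wt. Rps10 lay at 131, 129 and 136 and Rps14 at 2173, 3701 and 4356. These comparisons share libraries with ko_igg against wt.

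Among the neutrophil libraries, 2 stood apart for part of the family. In ko_igg 18, 17 of 55 members were at least 2-fold below the table's median library and 5 at least 4-fold, against 2.96% and 0.53% of all genes. In ko_ly6g 5 the counts were 10 and 4, against 5.02% and 0.77% of genes. No member was 4-fold below the median in any of the other 8 libraries. Rps25 lay at 5.69 in ko_igg 18 and 8.35 in ko_ly6g 5, against 158 to 555 elsewhere in the table. Rps4x lay at 21.6 and 7.16 against 84.5 to 359, and Rpl35a at 36.4 and 31.6 against 184 to 304. Other members showed no such drop in the same libraries. Rplp0, the base of the acidic stalk, lay at 6078 and 7081, where the other 8 libraries spanned 4161 to 7269. Rps3, at the messenger entry, lay at 6688 and 5880, where the others spanned 5997 to 8909, so ko_ly6g 5 lay just below them.

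**Figure D5:**
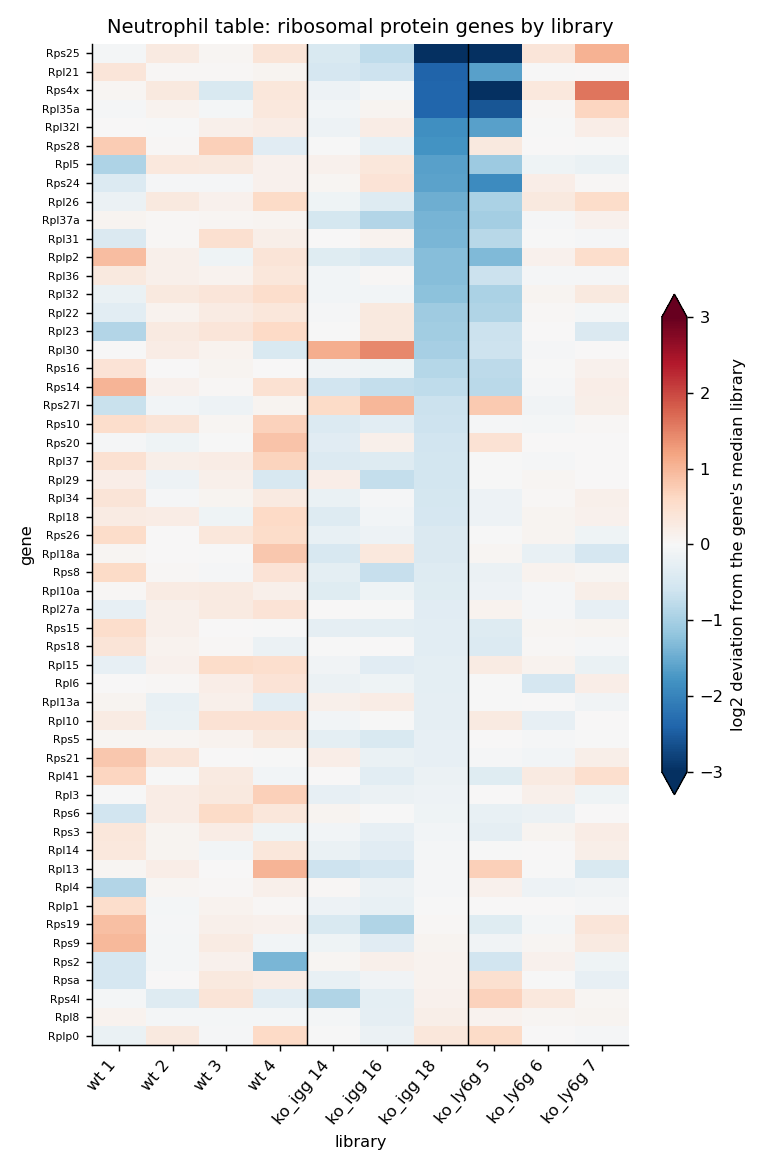
Log2 deviation of the tested members of the neutrophil table, all but 1 of the 55, from its own median over the 10 libraries, ordered by the deviation in ko_igg 18; red is higher, blue lower, and the scale is clipped at 3 in both directions. Rps25, Rps4x and Rpl35a are deep blue in ko_igg 18 and ko_ly6g 5. Rplp0, at the foot of the map, lies above its median there (0.35 and 0.57).

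Removing ko_igg 18 and ko_ly6g 5, added after the values were seen, left a median of -0.30 for ko_igg against wt. Then 4 members fell and 2 rose, with 7.61% of genes called. Rpl37 was still called (-0.79, adjusted p = 0.0378), joined among others by Rpl37a (-0.77) and Rpl21 (-0.70), and the members that rose were Rpl30 (1.31) and Rps27l (0.99). Rpl37a was named because its values were seen. Rps10 (-0.79, adjusted p = 0.051) and Rps14 (-1.05, adjusted p = 0.0649) no longer passed, with changes about as large as before. With single libraries left out, the call of Rps10 was lost without ko_igg 14 (adjusted p = 0.0578), and that of Rps14 without any 1 of 6 of the 7 libraries, all but wt 1 (at most 0.137). Without ko_igg 14 the comparison called 1 member (3.11% of genes) and without wt 1 it called 7 (15.9%). edgeR's test on the 8 libraries with recovered reads, which leaves 2 ko_igg libraries, called no member and 0.91% of genes. The large fitted changes of Rps25 in ko_igg (-2.35, SE 1.41, adjusted p = 0.308) and in ko_ly6g (-1.32) did not pass. Macrophage markers summed to 1.00% to 1.26% of the signal in ko_igg, 1.24% to 3.48% in wt and 0.61% to 1.47% in ko_ly6g, and neutrophil markers to 0.015% to 0.050%, 0.0047% to 0.0094% and 0.013% to 0.066%. Their part in the changes of the family was not tested.

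The acidic stalk that recruits elongation factors (Rplp0, Rplp1, Rplp2) had no member called in any comparison, although Rplp0 was lower with antibiotics once IL10R_abx_160 and IL10R_abx_161 were left out (-0.53 against IL10R, adjusted p = 0.00845). Rplp1 lay at 4998 to 9352 across the 18 rescue libraries and was highest in IL10R_abx_160 and IL10R_abx_161, at 9352 and 8119. Rps19, the gene most often mutated in Diamond-Blackfan anaemia, and Rpsa, which also occurs as a laminin receptor, were not called in any comparison. Rpl13a, which takes part in interferon-driven translational control in macrophages, was not called either and lay at 457 to 697 in the rescue table. Rpl22, which is dispensable for most translation, and Rps3, a DNA repair protein as well, were not called. Over all 11 comparisons 19 of the 65 members tested in any table were called at least once (29.2%), against 60.6% of the 7623 genes tested. Of the members only Rpl29, Rpl41 and Rps14 were called in 3 comparisons.

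Proteins that make or use the ribosome were examined beside its own proteins. Of 34 translation factors tested in IL10R_abx against IL10R 5 rose and 11 fell, which is 47.1% of the list where 57.8% of all genes were called. Eif6, which keeps free large subunits from joining, fell by 1.10 (SE 0.13, adjusted p = 7.58e-07), and Eif5, a start-site factor, rose by 0.80 (SE 0.13, adjusted p = 3.21e-05). In ko_igg against wt Eif6 rose by 0.92 (SE 0.21, adjusted p = 0.0222). Of 39 ribosome biogenesis factors 7 rose and 7 fell with antibiotics in IL10R mice (35.9% of the list, against the same 57.8%), with Gnl3 at 1.30 and Utp20 at -1.52. In ko_igg against wt 4 of 45 rose and none fell (8.89%, near the 9.19% of all genes), among them Noc4l (1.24, SE 0.28, adjusted p = 0.0215) and Rrs1 (1.11, SE 0.21, adjusted p = 0.0111). Noc4l also rose in the first table (1.08, SE 0.24, adjusted p = 0.0264).

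Genes that link growth signals to translation were examined as a further list. In the first table none of 24 rose and 2 fell (8.33%, against 8.69% of all genes). These 2 were Deptor and Eef2k (-1.15, SE 0.22, adjusted p = 0.0159). In IL10R against CX 1 of 26 rose and 1 fell (7.69%, against 9.91%). The member that rose there was Eif4ebp3 (0.71, SE 0.18, adjusted p = 0.0174). In ko_igg against wt 2 of 25 rose and 2 fell (16%, against 9.19%). Deptor, an inhibitor of mTOR, changed by -1.33 in the first table (SE 0.28, adjusted p = 0.0216) and by -0.88 in ko_igg against wt (SE 0.20, adjusted p = 0.0222). Sesn1, a sensor that restrains mTOR, was lower in IL10R than in CX (-0.95, SE 0.25, adjusted p = 0.0221) and in ko_igg than in wt (-1.21, SE 0.28, adjusted p = 0.0241). It rose with antibiotics in IL10R mice by 2.23 (SE 0.20, adjusted p = 3.23e-08). Of 26 genes of that list 5 rose and 3 fell there, which is 30.8% against 57.8% of all genes. The subunits whose symbols fall outside the rule, such as Fau, had no call among 6 tested in the first table. Rpl36al, a near relative of a large subunit gene, changed by -0.71 with antibiotics in IL10R mice (SE 0.13, adjusted p = 7.3e-05). Of the 6 tested in that comparison 2 fell and 0 rose, which is 33.3% against 57.8% of all genes.

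Proteins of the mitochondrial ribosome, which reads the messengers of the mitochondrion, were examined for comparison. Of 61 tested none rose and 43 fell in IL10R_abx against IL10R (median -0.61, against -0.15 for the cytosolic members), or 70.5% where 57.8% of all genes were called. In littermate_abx against CX 22 of 61 fell (median -0.56, against -0.13), or 36.1%, near the 34% of all genes. In IL10R_abx against IL10R_P19 33 of 61 fell (median -0.44), or 54.1% against 48.3%. In ko_igg against wt 2 of 66 rose and none fell (3.03% against 9.19%), with a median of 0.18, against -0.43 for the cytosolic members. The medians of these 2 families had opposite signs there, a contrast that was not tested.

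Members shared part of their variation between libraries of a group. Across the tested members, the median correlation of a member's deviations from its group means with the mean of the other members' was 0.61 in the first table, where it was 0.02 for other genes and also 0.61 for mitochondrial ribosomal proteins (n = 6 libraries). It was 0.20 in the rescue table (n = 18) and 0.35 in the neutrophil table (n = 10), with -0.00 and -0.07 for other genes. These libraries share depth and scaling, so the values are descriptions only. The median SD within groups was 0.26, 0.25 and 0.35 log2 units for members of the first, rescue and neutrophil table, against 0.28, 0.27 and 0.31 for other genes.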

How the data were processed

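RNA of sorted macrophages was captured by its poly(A) tail, amplified with T7 polymerase and sequenced, per the labels' protocols. The deposited tables hold normalized signal per gene, 1 column per library. The submitters' processing notes name bcl2fastq, HISAT 0.1.6, HOMER and the build mm9. What each tool did, the annotation, the strand setting and the origin of the authors' scaling are not stated in any source used here. Whole reads were recovered in 32 of 34 libraries (100% of values whole within 0.01 read; not in ko_igg 16 and wt 3). Since the values are normalized, limma was the main test. The scale was log2(value + pseudocount), with pseudocounts of 1.31, 0.997 and 0.982 for the first, rescue and neutrophil table, so changes of low genes are understated. Genes with means up to 53.2, 40.4 and 68.0 were removed, leaving 6766, 6612 and 6594. Each table was fitted once over all its groups with limma 3.58.1 (R 4.3.3; trend, robust). A gene was called where p, adjusted by Benjamini-Hochberg across every tested gene, was under 0.05. The fits were tested on simulated data. Unnamed rows, which are blank or repeat column names and hold no number, were dropped (15399 of the first table, 15605 of the rescue table).

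Groups came from titles. Within each group, recovered reads of any 2 libraries differed by more than sampling noise (smallest chi-square per degree of freedom 3.59), so none was counted as a repeat. The numbers 1 to 3 in both groups of the first table gave correlations of -0.06, 0.15 and 0.35 and were not taken as pairs. Members and gene lists were chosen with earlier results of these data known. Members named are those called (where over 12 are called, 6 per direction with the smallest adjusted p), the 3 largest changes each way, and a set list of well-known members; of other lists, up to 4 called genes per comparison and a few standard ones. Some genes these rules name are not reported here, though they stay in every fit and count. Alternatives were a pseudocount 10 times larger, no filter, equal sums, quantile normalization, fits on 2 groups, each library left out, a replicate block and, added after seeing the data, edgeR 4.0.16 on recovered reads, the interaction test and 2 pairs of libraries left out. Coordinates are those of RefSeq promoter windows (GRCm38.p6), since mm9 genes were not used here.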

Additional observations from a re-analysis of the deposited data

Results flagged for a closer look

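Of the groups of 4 or 5 libraries tested over 40 named members, 11 (6.83%) held 1 library far from the others, where chance marks about 1 in 20. Among antibiotic libraries these were Rpl3, with 37.0 in IL10R_abx_160 against 62.1 to 64.4, Rpl37, with 581 in IL10R_abx_161 against 400.1 to 421, Rps20, with 1864 in IL10R_abx_161 against 514 to 696, and Rps14, with 1803 in IL10R_abx_497 against 1089 to 1204. In IL10R of the rescue table they were Rpl13a, with 457 in library 32 against 546 to 557, and Rpl39, with 377 in library 61 against 291 to 303. In wt 1 Rpl21 was high at 1310 (others 1036 to 1082), Rps19 was high at 1158 (610 to 692) and Rpl4 was low at 3798 (7179 to 7719). In wt 4 Rpl13 was high at 3323 (1662 to 1896) and Rps20 at 2038 (1025 to 1115).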

How the results depend on the processing

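Of 30 calls of named members, 6 held in every setting. Counts of called members that moved were as follows. Without a filter they were 1 for IL10R_P19 against IL10R, 1 for littermate_abx against CX and 5 for ko_igg against wt. Fits on 2 groups gave 1 for IL10R_P19 against IL10R, 5 for IL10R_abx against IL10R and 4 for IL10R_abx against IL10R_P19. Equal sums gave 1, 27 and 24 for these and 8 for littermate_abx against CX. Quantile normalization gave 25, 25 and 7 for the last 3 in the order IL10R, IL10R_P19 and CX, and 1 for the interaction. edgeR gave 5 for IL10R against CX, 4 for littermate_abx against CX and 0 for ko_igg against wt. Without ko_igg 18 and ko_ly6g 5 the count for ko_igg against wt was 6. Medians with equal sums and quantile normalization were -0.35 and -0.28 (IL10R_abx against IL10R), -0.27 and -0.23 (littermate_abx against CX), and -0.32 and -0.28 (IL10R_abx against IL10R_P19). Where nothing else is said, the cause was not tested.

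Directions turned without IL10R_abx_160 and IL10R_abx_161 for Rps25 against IL10R (0.0487) and Rpl13 against IL10R_P19 (-0.11), with edgeR for Rps24 in ko_ly6g against ko_igg (0.24), and without ko_igg 18 and ko_ly6g 5 for Rps25 (0.53) and Rpl35a (0.27) in ko_ly6g against wt. Leaving out 1 library at a time gave counts of 0 to 3 (IL10R against CXhet), 1 to 4 (IL10R against CX), 0 to 2 (IL10R_P19 against IL10R), 6 to 17 (IL10R_abx against IL10R), 0 to 5 (IL10R_abx against littermate_abx), 1 to 2 (littermate_abx against CX), 7 to 20 (IL10R_abx against IL10R_P19), 0 to 1 (interaction) and 1 to 7 (ko_igg against wt). Medians ranged from -0.15 to -0.0214 (IL10R against CX), -0.10 to 0.0668 (IL10R_P19 against CX), -0.14 to -0.0116 (IL10R_abx against littermate_abx), -0.21 to -0.0285 (littermate_abx against CX) and -0.12 to 0.12 (interaction). In ko_ly6g against ko_igg Rps24 ranged from -0.79 to 0.49 and Rps25 from -0.55 to 2.88. In ko_ly6g against wt the ranges were -2.42 to 0.53 (Rps25), -1.35 to 0.27 (Rpl35a) and -0.0452 to 0.46 (Rps2).

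The replicate block in the first table also gave 2 called members, both higher (Rpl29 and Rps27l), and the call of Rpl5 was lost (adjusted p = 0.0532), with 11.9% of genes called. Members with low values rest on few reads, and several groups hold only 2 or 3 libraries. Their part in the number of calls was not tested.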
